A study of Mus musculus with 7 samples.

Results

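The liver sets the iron supply of the body through hepcidin, the peptide hormone encoded by *Hamp*, and 10 genes of this system were followed in RNA-seq of mouse hepatocytes that lack WDR6. They were listed by symbol: *Hamp*, *Hfe*, *Hfe2*, *Tfr2*, *Tfrc*, *Trf*, *Fth1*, *Ftl1*, *Slc40a1* and *Id1*. All 10 were found among the 14819 rows of the count table, and all 10 passed the expression filter that left 14779 genes for testing.

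Primary hepatocytes were isolated from male mice by perfusing the liver with collagenase, cultured in William's E medium with fetal bovine serum and kept overnight, with no treatment. Hepatocytes of 4 WT samples were compared with those of 3 WDR6-WKO samples, from mice in which CRISPR–Cas9 had removed exon 2 of *Wdr6* in every tissue. The labels give neither age nor strain, and the study's methods name 7-week-old C57BL/6J mice as a general default without stating either for the WDR6-WKO line. The cells of the WDR6-WKO group came from animals that lacked *Wdr6* in the whole body, including the tissues that supply the liver with iron and with signals. The labels do not say which samples came from separate mice. The study's methods describe its replicates in general as biological, without naming these libraries. The p-values measure the spread between these samples, and how much of it lies between mice is not known.

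Hepcidin binds ferroportin, the iron exporter encoded by *Slc40a1*, and causes it to be degraded, so that less iron enters the blood from the gut, from macrophages and from hepatocytes. Hepatocytes transcribe *Hamp* when bone morphogenetic proteins (BMPs), made largely by liver endothelial cells, activate SMAD factors, with hemojuvelin (*Hfe2*), HFE and transferrin receptor 2 (*Tfr2*) as further parts of the sensor, and when interleukin-6 activates STAT3 during inflammation. Inside cells, iron regulatory proteins bind hairpins in the mRNAs for ferritin, ferroportin and transferrin receptor 1 and adjust their translation or stability.

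In the GENCODE annotation of GRCm38, *Hamp* occupies positions 30942368 to 30944032 of chromosome 7, minus strand. On the upstream side, the 3′ end of its neighbour *Usf2*, on the same strand, is 1215 bases away, and its paralog *Hamp2* lies 17686 bases away on the other side. The stretch of the *Hamp* promoter shown first carries the known sites for both signals, with the BMP response element GGCGCC at 109 to 104 bases and the STAT site TTCTTGGAA at 97 to 89 bases before the transcription start. It is set above the same stretch of *Hamp2*, because the paralog is nearly identical there. Both sequences are from RefSeq on GRCm38.p6, minus strand, chr7:30944100-30944159 for *Hamp* and chr7:30924249-30924308 for *Hamp2*, with capitals marking the motifs.
Hamp: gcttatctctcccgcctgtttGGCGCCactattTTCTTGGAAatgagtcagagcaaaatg
Hamp2: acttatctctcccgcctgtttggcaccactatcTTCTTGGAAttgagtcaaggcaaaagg
The windows are identical at 53 of 60 bases. Counted from 1 at the 5′ end of the *Hamp* window, the difference G25A from *Hamp* to *Hamp2* falls inside the BMP response element, and *Hamp2* keeps the STAT site. Both motifs together (GGCGCC and TTCNNNGAA, palindromes that read alike on both strands and do not overlap in *Hamp*) were searched in promoters of 300 bases, of which 250 lie before the start, and were present in 0.645% of 32851 mouse promoters, while GGCGCC alone was in 11.9% and TTCNNNGAA alone in 8.3%. The E-box CACGTG, which upstream stimulatory factors read, was not found in the 300-base promoter of *Hamp* and was in 7.15% of promoters. Promoters of *Hfe2*, *Trf*, *Slc40a1* and *Id1* were not among those matched, and 1 promoter of *Tfrc* also held GGCGCC.

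Libraries held 17816913 to 23668940 counted reads. *Wdr6* was lower in each WDR6-WKO library (2.23 to 2.58 CPM, read counts relative to the library total after TMM scaling) than in any WT library (40.6 to 49.0 CPM), with a log2 fold change of -4.20 (edgeR quasi-likelihood test, adjusted p = 3.44e-12). WDR6-WKO replicate 3 stood apart from the other WDR6-WKO libraries, with a chi-square per gene of 14.3 and 15.9 against them, while the other pairs within a genotype lay between 3.80 and 8.23. Where leaving out this library changed the call of a gene described in the text, the value without it is given. All 12 listed hepatocyte markers were present, with albumin (*Alb*) at 6360 to 7934 CPM in WT and 6087 to 6803 CPM in WDR6-WKO libraries, and markers of Kupffer, endothelial and stellate cells were present as well. Every difference is WDR6-WKO against WT, and adjusted p-values come from the quasi-likelihood test of edgeR, adjusted by Benjamini and Hochberg's method over all genes.

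*Hamp* rose and *Slc40a1* fell in WDR6-WKO hepatocytes, and the other 8 genes did not pass the test. *Hamp* RNA was 2.28-fold higher and *Slc40a1* RNA was at 0.781 of the WT level on the edgeR scale. The count of members was thus 1 higher and 1 lower, beside 6.65% of all genes called higher and 6.18% called lower. The median log2 fold change of the 10 genes was -0.01, beside 0.01 for all genes. The study's call rule asks for a log2 fold change of 0.35 or more in size, with an unadjusted p under 0.05. The study set it on DESeq2 results, and here it was applied to the edgeR fit. By this rule *Hamp* was higher and *Slc40a1* and *Hfe2* were lower, beside 6.42% and 3.94% of all genes. With DESeq2 *Trf* passed it as lower as well. The libraries of the groups did not overlap for 2 of the 10 genes, *Hamp* and *Slc40a1*, beside 23.5% of all genes. Without WDR6-WKO replicate 3 the same test called *Hamp*, *Ftl1* and *Id1* higher and *Slc40a1* and *Trf* lower, while the calls over all genes went from 983 to 2150 higher and from 914 to 2083 lower.

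**Figure D1:**
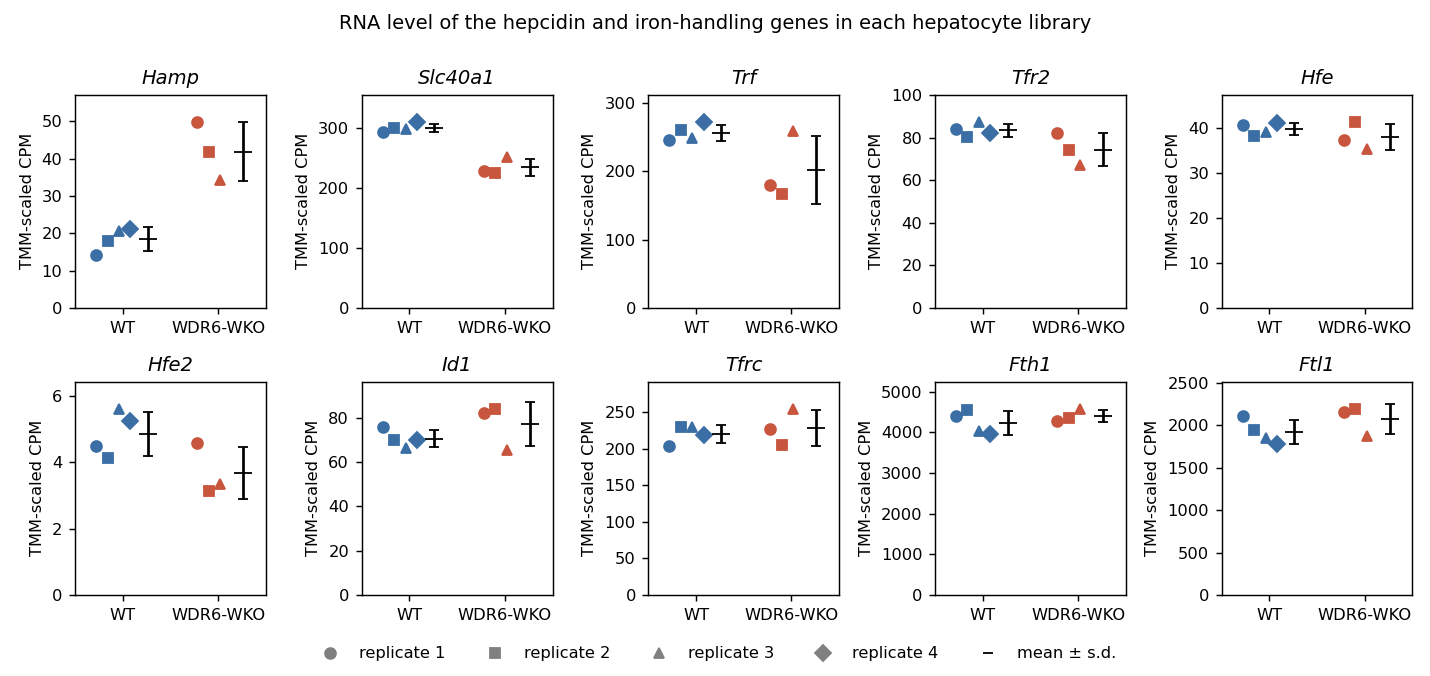
TMM-scaled CPM of the 10 iron genes (y axis, 1 panel a gene, starting at 0) in 4 WT (blue) and 3 WDR6-WKO (red) hepatocyte libraries, with symbols for the replicate number and black bars for the mean and s.d. of each group. The red points of *Hamp* (34.1 to 49.7 CPM) sit above all blue points and those of *Slc40a1* (225 to 250.9 CPM) below all blue points, and the groups overlap in the other panels.

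*Hamp*, the hormone itself, was measured at 14.1, 17.8, 20.5 and 21.2 CPM in WT replicates 1 to 4. In WDR6-WKO replicates 1 to 3 it was measured at 49.7, 41.8 and 34.1 CPM. Each WDR6-WKO library thus exceeded each WT library, and the lowest of them, replicate 3, was 1.61 times the highest WT library. The group means were 18.4 ± 3.21 CPM (s.d., n = 4) and 41.9 ± 7.77 CPM (s.d., n = 3). *Hamp* rose by 1.19 on the log2 scale (standard error 0.15, 95% interval 0.86 to 1.52, adjusted p = 0.000594), and an exact permutation test, two-sided over the 7 libraries, gave p = 0.0286, the smallest p that this design allows. Over the 14 alternative settings the log2 fold change lay between 1.04 and 1.31 and the adjusted p did not exceed 0.0375, and without WDR6-WKO replicate 3 they were 1.31 and 0.000701. Behind these levels stood 280 to 422 reads in the WT libraries and 611 to 1195 in the WDR6-WKO libraries, so counting error was small beside the spread between libraries. That spread was wide within each genotype, with a coefficient of variation of 17.5% in WT and 18.6% in WDR6-WKO hepatocytes. *Hamp2* was not analysed here, and 16.6% of the 50-base sequences of the *Hamp* transcript also occur in it.

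Per kilobase of exon, *Hamp* ranked 6 of the 10 genes in WT libraries, at 44.9 ± 7.84 CPM per kb (s.d., n = 4), and 3 of 10 in WDR6-WKO libraries, at 102 ± 18.9 CPM per kb (s.d., n = 3). *Fth1* and *Ftl1* led in both genotypes, with WT levels of 2616 ± 177 and 1984 ± 146 CPM per kb (s.d., n = 4). *Trf* and *Slc40a1* followed in WT at 89.5 ± 4.03 and 86.7 ± 1.92 CPM per kb, and their ranges overlapped. *Id1* stood at 60.8 CPM per kb, above *Hamp*, whose range of 34.4 to 51.7 CPM per kb in WT enclosed that of *Tfrc*, 38.4 to 43.2 CPM per kb. *Tfr2* (23.8 CPM per kb), *Hfe* (11.1 CPM per kb) and *Hfe2* (2.40 CPM per kb) were lower, with separate ranges. In WDR6-WKO libraries the range of *Hamp*, 83.2 to 121 CPM per kb, lay above that of *Slc40a1*, 65.0 to 72.4 CPM per kb, and overlapped that of *Trf*, 58.2 to 90.4 CPM per kb.

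The sensors that couple iron to *Hamp* did not pass the test with all libraries. *Hfe2* (chromosome 3, 96525172 to 96529210), the BMP co-receptor hemojuvelin, was measured at 4.49, 4.14, 5.58 and 5.22 CPM in WT and 4.57, 3.12 and 3.35 CPM in WDR6-WKO replicates 1 to 3. Replicates 2 and 3 of WDR6-WKO lay under every WT library and replicate 1 within the WT range. For *Hfe2* this gave a log2 fold change of -0.39 (standard error 0.17, 95% interval -0.76 to -0.02), with an unadjusted p of 0.0395 in the edgeR test and an adjusted p of 0.155. *Hfe2* passed the study's call rule on that unadjusted p and under 8 of the 14 alternative settings. It did not pass with library sizes alone, with the replicate number as a block, or without WT replicate 3 (-0.32), WT replicate 4 (-0.35, on the p), WDR6-WKO replicate 2 (-0.28) or WDR6-WKO replicate 3 (-0.33).

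*Tfr2* (chromosome 5, 137569840 to 137587481), which binds iron-loaded transferrin on hepatocytes, was measured at 84.2, 80.2, 87.2 and 82.1 CPM in WT libraries. Its WDR6-WKO values were 82.2, 74.0 and 67.0 CPM. Again replicates 2 and 3 were under the WT range and replicate 1 inside it. *Tfr2* did not pass the edgeR test, at a log2 fold change of -0.16 (95% interval -0.30 to -0.02, adjusted p = 0.122). Without WDR6-WKO replicate 1 it was -0.25 with an adjusted p of 0.0385, and it did not pass the test under any other of the 14 settings. *Hfe* (chromosome 13, 23702034 to 23710854), the MHC class I-like protein mutated in the commonest hereditary haemochromatosis, was measured at 40.7, 38.1, 39.1 and 41.0 CPM in WT and 37.3, 41.2 and 35.3 CPM in WDR6-WKO libraries. The groups overlapped, and the log2 fold change of -0.07 had a 95% interval from -0.21 to 0.08 (edgeR test, adjusted p = 0.568).

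**Figure D2:**
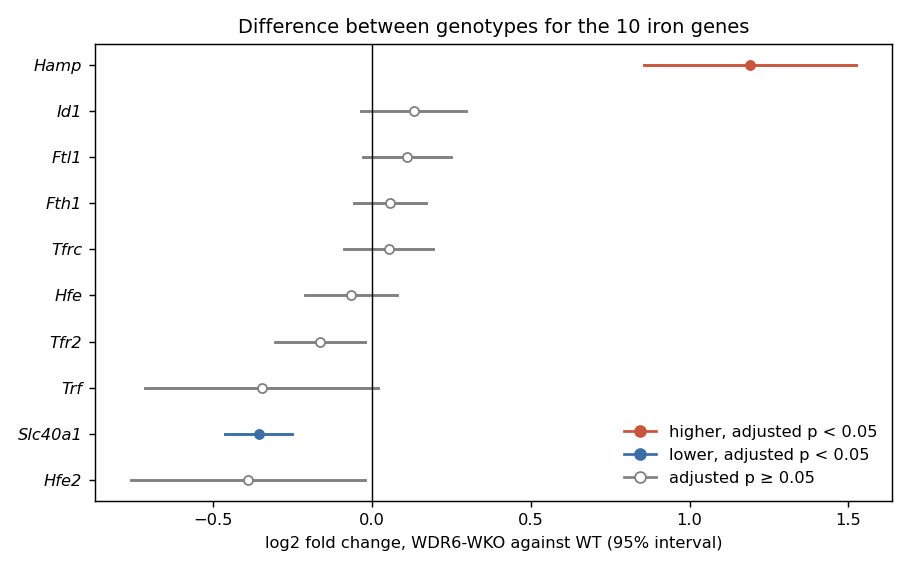
Log2 fold change of WDR6-WKO against WT (x axis) for the 10 iron genes (y axis, ordered by the change), with 95% intervals from the edgeR fit as lines and filled points where the adjusted p was under 0.05. *Hamp* stands at 1.19 and *Slc40a1* at -0.36, and no open point lies farther from 0 than that of *Hfe2* at -0.39, whose interval is the widest among the open points.

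*Slc40a1* (chromosome 1, 45908068 to 45926523, minus strand), the exporter that hepcidin removes from the membrane, was measured at 293, 301, 299 and 309 CPM in WT libraries. In WDR6-WKO libraries it was measured at 228, 225 and 250.9 CPM. All 3 WDR6-WKO libraries lay under all 4 WT libraries, which differed from each other by a coefficient of variation of only 2.22%. The means were 300.4 ± 6.65 CPM (s.d., n = 4) and 235 ± 14.1 CPM (s.d., n = 3). *Slc40a1* fell by 0.36 on the log2 scale (standard error 0.05, 95% interval -0.46 to -0.25, adjusted p = 0.000197), the exact two-sided permutation test gave p = 0.0286, and the call held under all 14 alternative settings, DESeq2 and limma-voom among them, with an adjusted p of at most 0.00238. The study's call rule, which needs a size of 0.35, was passed under 9 of the 14. Without WDR6-WKO replicate 3 the log2 fold change was -0.41. The counts measure the RNA of *Slc40a1*, and the action of hepcidin on its protein is not visible in them.

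Kupffer cells, the macrophages of the liver, also use ferroportin, so their markers were read beside *Slc40a1* and *Hamp*. Their 15 listed markers summed to 942 to 1050 CPM in WT libraries and to 1218, 1295 and 1091 CPM in WDR6-WKO replicates 1 to 3, and none of the 15 was at 0. In the edgeR test 4 markers were higher and 0 lower. The shares over all genes, beside each marker list here, were 6.65% higher and 6.18% lower. Without WDR6-WKO replicate 3, *Cd5l*, *Marco*, *Csf1r* and *C1qa* were also called higher, at 0.25, 0.64, 0.15 and 0.76 (edgeR adjusted p = 9.89e-05, 7.66e-12, 0.0476 and 6.28e-11). With all libraries, 13 of the 15 had a positive log2 fold change, with a median of 0.22. The 4 called higher were *Lyz2* (0.64), *Fcgr1* (0.75), *C1qc* (0.48) and *C1qb* (0.30). The lowest was that of *Timd4*, a marker of resident Kupffer cells, at -0.48 (edgeR adjusted p = 0.088). *Timd4* had 2.87 to 4.02 CPM in WT and 2.29 to 2.84 CPM in WDR6-WKO libraries, which did not overlap. The 12 hepatocyte markers summed to 15523 to 18480 CPM in WT and 13998 to 16062 CPM in WDR6-WKO libraries, with 5 markers lower, and *Cps1*, an enzyme of the urea cycle, had a log2 fold change of -0.69. The 12 sinusoidal endothelial markers summed to 374 to 427 CPM in WT and 349 to 411 CPM in WDR6-WKO libraries (0 higher, 1 lower), and 10 stellate cell markers to 630 to 691 and 665 to 726 CPM (1 higher, 1 lower). The part of these cell markers in the results was not tested. In bulk RNA, fewer cells of a type and less RNA per cell cannot be told apart.

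The genes of transferrin iron uptake did not pass the test with all libraries. *Trf* (chromosome 9, 103204001 to 103230444, minus strand), the plasma iron carrier made by hepatocytes, was measured at 246, 259, 248 and 271 CPM in WT and 179, 167 and 259 CPM in WDR6-WKO replicates 1 to 3. Replicates 1 and 2 of WDR6-WKO lay far under the WT range and replicate 3 inside it, and the coefficient of variation was 4.51% in WT and 24.8% in WDR6-WKO libraries. Over all libraries the log2 fold change of *Trf* was -0.35 (95% interval -0.71 to 0.02), with an adjusted p of 0.198 in the edgeR test. Without WDR6-WKO replicate 3 it was -0.57 with an adjusted p of 7.82e-11. The study's call rule, not passed in this fit, was passed by *Trf* with DESeq2, limma-voom and without that replicate. Of the 50-base sequences of *Trf*, 79.8% also belong to the annotated gene *Gm20425* on the same strand, so the count depends on how such reads were assigned.

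*Tfrc* (chromosome 16, 32608920 to 32632794), the transferrin receptor 1 that imports iron in most cells, was measured at 203, 229, 229 and 219 CPM in WT and 226, 205 and 253 CPM in WDR6-WKO libraries. The groups overlapped, with a log2 fold change of 0.05 (95% interval -0.09 to 0.19, adjusted p = 0.653 in the edgeR test) that was -0.03 without WDR6-WKO replicate 3.

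The ferritin subunits, which together form the cage that stores iron, were the most abundant of the 10 genes. *Fth1* (chromosome 19, 9980598 to 9985098), the heavy subunit, was measured at 4403, 4545, 4027 and 3955 CPM in WT and 4279.8, 4359 and 4562 CPM in WDR6-WKO libraries. The log2 fold change of 0.06 had a 95% interval from -0.06 to 0.17 (edgeR test, adjusted p = 0.54), and the groups overlapped. *Ftl1* (chromosome 7, 45457944 to 45459884, minus strand), the light subunit, was measured at 2108, 1942, 1849.5 and 1781 CPM in WT and 2161, 2187 and 1872 CPM in WDR6-WKO libraries. Replicates 1 and 2 of WDR6-WKO lay above the WT range and replicate 3 inside it. *Ftl1* had a log2 fold change of 0.11 (standard error 0.06) and an adjusted p of 0.282 in the edgeR test, and without WDR6-WKO replicate 3 it was 0.18 with an adjusted p of 0.0113. The transcript of *Ftl1* shares 78.9% of its 50-base sequences with other annotated genes, among them *Ftl1-ps1*, which makes its value uncertain.

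Iron regulatory proteins reach 4 of these mRNAs through hairpins known as iron-responsive elements. A search of whole protein-coding transcripts found them, at 30 bases each, in the untranslated regions of these 4. The search asked for the loop CAGTGN, an unpaired C before the upper stem, 5 paired bases in the upper stem and at least 3 of 4 pairs in the lower stem, and it matched 51 of 21901 protein-coding genes (0.233%). The loop is in capitals, on GRCm38, in the sense of each mRNA. The single sites in the 5′ untranslated regions are chr19:9982732-9982761 (plus strand) of *Fth1*, chr7:45459778-45459807 (minus strand) of *Ftl1* and chr1:45925464-45925493 (minus strand) of *Slc40a1*, and 1 of the 4 sites in the 3′ untranslated region of *Tfrc* is chr16:32631219-32631248 (plus strand).
Fth1: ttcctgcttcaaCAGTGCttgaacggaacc
Ftl1: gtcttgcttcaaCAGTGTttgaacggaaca
Slc40a1: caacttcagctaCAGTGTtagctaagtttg
Tfrc: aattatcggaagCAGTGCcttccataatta
Elements at the 5′ end are known to hold back translation when iron is low, and those at the 3′ end of *Tfrc* to protect the mRNA from decay. Of these 4 mRNAs, *Slc40a1* fell, and *Fth1*, *Ftl1* and *Tfrc* did not pass the test in either direction. The counts hold no measure of translation.

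*Id1* (chromosome 2, 152736251 to 152737410), an inhibitor of DNA binding that BMP-SMAD signals induce together with *Hamp*, was measured at 75.7, 70.0, 66.3 and 69.9 CPM in WT libraries. In WDR6-WKO replicates 1 to 3 it was measured at 82.0, 83.7 and 65.6 CPM. Replicates 1 and 2 lay above all WT libraries and replicate 3 under all of them. In the edgeR test *Id1* had a log2 fold change of 0.13 (95% interval -0.04 to 0.30) and an adjusted p of 0.297. Without WDR6-WKO replicate 3 it was 0.23 with an adjusted p of 0.00184. *Hamp* differed from *Id1* in that replicate 3 also exceeded the WT range, although it was the lowest of the WDR6-WKO libraries for both genes.

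Other genes that BMP-SMAD signals induce gave no shared direction with all libraries. Of 7 listed targets, 0 were called higher and 1 was called lower, beside 6.65% and 6.18% of all genes. Their median log2 fold change was 0.10. The gene called lower was *Id2*, a relative of *Id1* with many other inputs, at 293 to 306 CPM in WT and 239 to 250.1 CPM in WDR6-WKO libraries (log2 fold change -0.29, adjusted p = 0.0004 in the edgeR test). *Smad7*, the inhibitory SMAD that feeds back on the pathway, was measured at 46.7, 43.8, 47.5 and 41.7 CPM in WT and 53.9, 53.7 and 44.7 CPM in WDR6-WKO libraries, with an adjusted p of 0.135. As for *Id1*, replicates 1 and 2 lay above the WT range and replicate 3 did not. *Id3* had the same pattern, with 63.3 to 70.3 CPM in WT and 80.0, 78.0 and 62.2 CPM in WDR6-WKO libraries (adjusted p = 0.199). Without WDR6-WKO replicate 3 both were higher, *Smad7* at 0.26 (edgeR adjusted p = 0.00164) and *Id3* at 0.26 (adjusted p = 0.000531), while *Id2* stayed lower at -0.31. *Smad6* and *Atoh8* had log2 fold changes of -0.02 and 0.10 and did not pass the test.

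**Figure D3:**
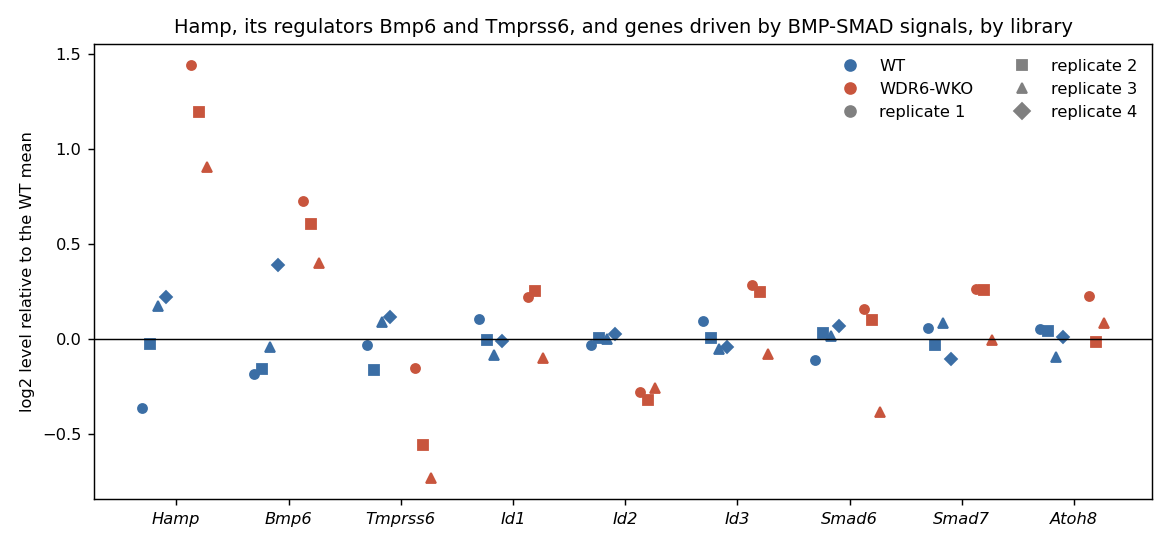
Log2 level minus the WT mean of the log2 levels (y axis) for *Hamp*, the ligand *Bmp6*, the protease *Tmprss6* and 6 genes induced by BMP-SMAD signals (x axis), with 1 point a library (blue, WT; red, WDR6-WKO; symbols, replicate number). The red points of *Hamp* lie highest, all 3 red points of *Id2* lie under the blue ones, and in *Id1*, *Id3* and *Smad7* the red triangle of replicate 3 lies below the other red points.

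Among 22 tested components of BMP-SMAD signalling, 2 were called higher and 2 lower, beside 6.65% and 6.18% of all genes. Their median log2 fold change was -0.01. *Bmp6*, the ligand most closely tied to hepcidin, was measured at 2.82, 2.88, 3.14 and 4.27 CPM in WT and 5.40, 4.96 and 4.30 CPM in WDR6-WKO libraries. The lowest WDR6-WKO library was just above the highest WT library. *Bmp6* had a log2 fold change of 0.58 (standard error 0.17) and an adjusted p of 0.0388 in the edgeR test, and 5 of the 14 alternative settings, each leaving out 1 library, raised the adjusted p over 0.05, to at most 0.163 without WDR6-WKO replicate 1. *Bmp4*, another ligand, was higher as well, with a log2 fold change of 0.65 (adjusted p = 0.0097) that lost the call only without WDR6-WKO replicate 2 (adjusted p = 0.0511). Exons of *Bmp6* and *Bmp4* overlap genes on the opposite strand, *Txndc5* and *Gm15217*, and reads of those genes may be among their counts.

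*Tmprss6*, the protease matriptase-2 that cleaves hemojuvelin and so restrains *Hamp*, was measured at 74.4, 68.0, 80.9 and 82.4 CPM in WT libraries. In WDR6-WKO libraries it was measured at 68.6, 51.6 and 45.7 CPM. Replicates 2 and 3 lay under the WT range and replicate 1 at its lower edge. *Tmprss6* had a log2 fold change of -0.46 (standard error 0.13) and an adjusted p of 0.046 in the edgeR test, and 7 of the 14 alternative settings raised the adjusted p over 0.05, among them library sizes alone (0.0686), the replicate block (0.0998) and the fit without WDR6-WKO replicate 3 (0.141), with the highest, 0.203, without WDR6-WKO replicate 2. *Smad4*, the partner of all receptor-activated SMADs, was lower by a log2 fold change of -0.20 (adjusted p = 0.0373), which was also lost under 7 of 14 settings. Other receptors and SMADs did not pass the test with all libraries, with log2 fold changes of -0.13 for *Bmpr1a*, -0.24 for *Bmpr2*, 0.08 for *Acvr1*, 0.00 for *Smad1*, -0.12 for *Smad5* and -0.32 for *Smad9*. *Bmpr2*, *Bmpr1a* and *Smad5* were lower without WDR6-WKO replicate 3, at -0.39, -0.26 and -0.18 (edgeR adjusted p = 1.68e-07, 0.000323 and 0.0141). *Bmpr1b*, *Rgma* and *Nog* were not analysed here.

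**Figure D4:**
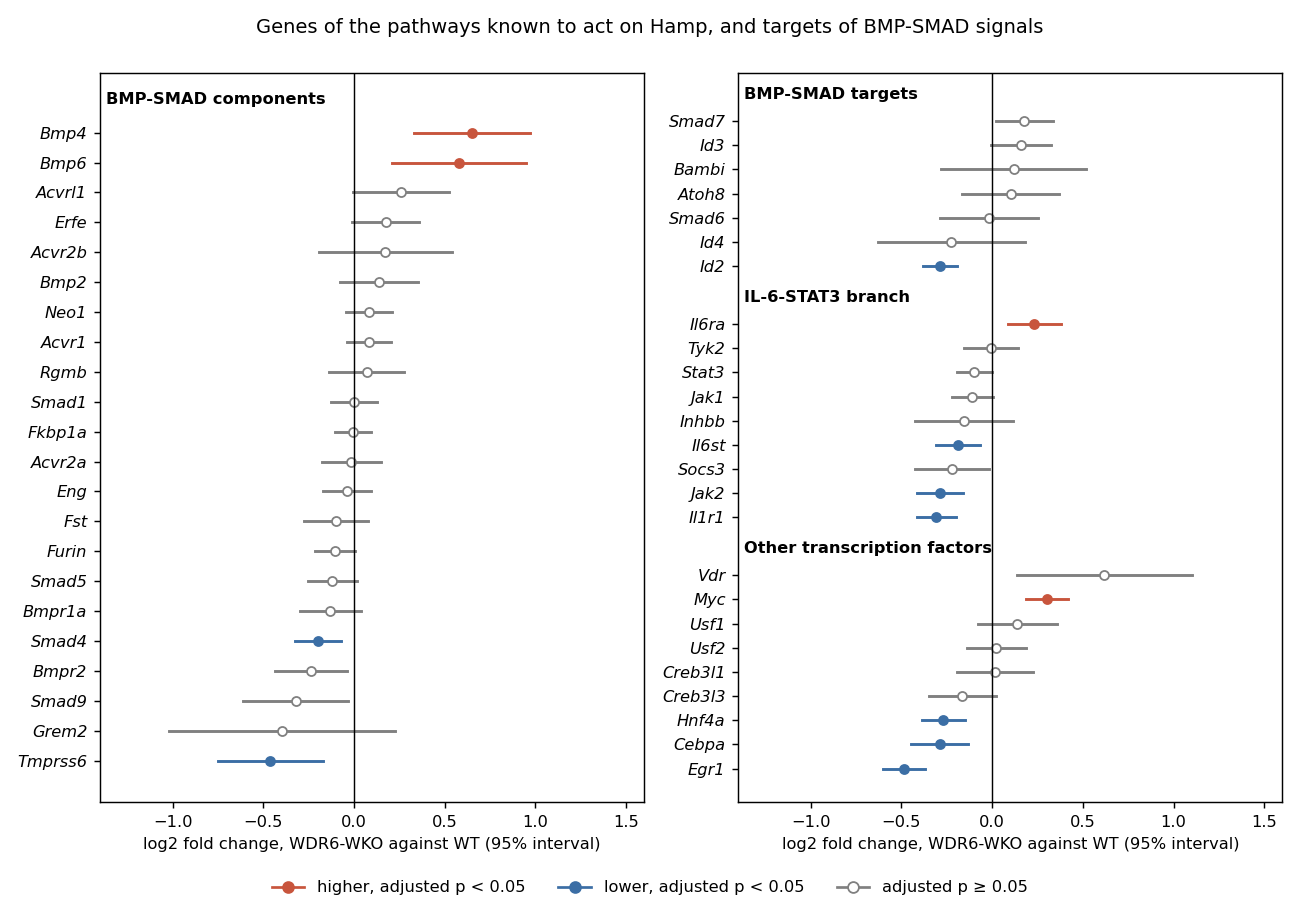
Log2 fold change of WDR6-WKO against WT (x axis) with 95% intervals for genes of the pathways known to act on *Hamp* and for targets of BMP-SMAD signals (y axis, grouped by list and ordered by the change). Red and blue filled points mark an adjusted p under 0.05. The lists hold 22, 7, 9 and 9 genes. Of these, 2, 0, 1 and 1 are called higher and 2, 1, 3 and 3 lower, beside 6.65% and 6.18% of all genes.

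On the inflammatory branch, 1 of 9 tested genes was called higher and 3 lower, beside 6.65% and 6.18% of all genes. The median log2 fold change of the branch was -0.16. *Il6ra*, the receptor that captures interleukin-6, was higher with a log2 fold change of 0.23 (adjusted p = 0.0352), and *Il6st*, the shared receptor chain gp130, was lower with -0.19 (adjusted p = 0.0377 in the edgeR test). These calls were lost under 6 and 7 of the 14 settings. *Jak2*, a kinase on that receptor, and *Il1r1*, the receptor of interleukin-1, were lower with log2 fold changes of -0.29 and -0.31 (adjusted p = 0.00458 and 0.000848), and neither lost the call under any of the 14 settings. *Stat3* itself was measured at 199 to 203 CPM in WT and 181 to 191 CPM in WDR6-WKO libraries, which did not overlap, yet it did not pass the edgeR test (log2 fold change -0.10, adjusted p = 0.164). It passed without WDR6-WKO replicate 3, at -0.11 (adjusted p = 0.0497). *Socs3*, a gene that STAT3 induces and that feeds back on it, was measured at 26.4 to 29.2 CPM in WT and 19.4 to 26.1 CPM in WDR6-WKO libraries, with a log2 fold change of -0.22 (adjusted p = 0.143) that was -0.10 without WDR6-WKO replicate 3 (adjusted p = 0.317). *Il6* was not analysed here.

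Of 9 other transcription factors known to act on *Hamp*, 1 was called higher and 3 lower, beside 6.65% and 6.18% of all genes. *Hnf4a* and *Cebpa*, factors of hepatocyte identity, had log2 fold changes of -0.27 (adjusted p = 0.00502) and -0.29 (adjusted p = 0.0186 in the edgeR test). The call of *Cebpa* was lost under 3 of 14 settings, each leaving out 1 library, with an adjusted p of at most 0.0604 without WT replicate 2. *Egr1*, an immediate early factor, was lower at -0.49 (adjusted p = 2.90e-05), and *Myc* was higher at 0.30 (adjusted p = 0.00156). The exons of *Cebpa* overlap a gene annotated on the opposite strand, whose reads may be among the counts. The same holds, among others, for *Ftl1*, *Bmpr1a*, *Stat3*, *Usf2*, *Il6ra*, *Cp*, *Cpox*, *Alas1* and *Fam96b*. *Usf2*, the upstream neighbour of *Hamp*, was measured at 27.8 to 30.05 CPM in WT and 27.4 to 32.0 CPM in WDR6-WKO libraries, with a log2 fold change of 0.02 (adjusted p = 0.88). *Usf1*, the other upstream stimulatory factor listed, was not called with all libraries. Its log2 levels relative to the WT mean were 0.25, 0.26 and -0.14 in WDR6-WKO replicates 1 to 3. Without WDR6-WKO replicate 3 it was higher at 0.25 (edgeR adjusted p = 0.0241). *Usf1* shares 22.7% of its 50-base sequences with other annotated genes.

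The wider iron genes moved in both directions and by less than *Hamp*. Of 21 tested genes of iron uptake and export, 2 were called higher and 4 lower, beside 6.65% and 6.18% of all genes. Their median log2 fold change was 0.03. *Lcn2*, the siderophore-binding lipocalin of the acute phase, rose from 1564 to 1773 CPM in WT to 2202 to 2263 CPM in WDR6-WKO libraries (log2 fold change 0.45, adjusted p = 1.95e-05 in the edgeR test). *Steap1* was higher at 0.36 and *Steap4*, a metalloreductase, lower at -0.37 (adjusted p = 0.0128 and 0.00108), and *Steap1* lost the call without WDR6-WKO replicate 2 (adjusted p = 0.0692). *Cp*, the ferroxidase ceruloplasmin that works with ferroportin, *Lrp1*, a receptor that also clears haem-hemopexin, and *Slc39a14*, the importer of iron not bound to transferrin, had log2 fold changes of -0.25, -0.19 and -0.14. Their adjusted p of 0.0228, 0.0235 and 0.0493 rose over 0.05 under 4, 6 and 8 of the 14 settings.

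Inside the cell, 0 of 18 tested genes of iron storage and sensing were called higher and 2 lower, beside 6.65% and 6.18% of all genes. Their median log2 fold change was -0.03. Called lower were *Epas1*, the hypoxia factor HIF2α whose mRNA iron regulatory proteins also bind, at -0.25 (adjusted p = 0.0096), and *Herc2*, a ubiquitin ligase, at -0.18 (adjusted p = 0.0394 in the edgeR test). The search for iron-responsive elements described above did not match *Epas1*, so it does not find every known element. The call of *Epas1* was lost without WDR6-WKO replicate 2 (adjusted p = 0.0527) and that of *Herc2* under 7 of 14 settings. The iron regulatory proteins *Aco1* and *Ireb2* had log2 fold changes of -0.03 and -0.17, and *Ncoa4*, which delivers ferritin for breakdown, had -0.08, none past the test with all libraries. *Ireb2* and *Ncoa4* without WDR6-WKO replicate 3 were lower at -0.26 and -0.15 (edgeR adjusted p = 0.000422 and 0.016). *Ncoa4* shares 43.1% of its 50-base sequences with *Gm6768*, so its count depends on how such reads were assigned.

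Of 18 genes of haem synthesis and breakdown, 1 was called higher and 2 lower, beside 6.65% and 6.18% of all genes. Their median log2 fold change was -0.09. *Alas1*, the first enzyme of the path, and *Fech*, which inserts iron into the ring, were lower at -0.18 and -0.21, and *Cpox* was higher at 0.23 (adjusted p = 0.0291, 0.0123 and 0.0301 in the edgeR test). Among 14 settings the calls of *Alas1* and *Cpox* were lost under 6 and 4, and that of *Fech* under 0. *Hmox1*, the haem oxygenase that frees iron from haem, had a log2 fold change of -0.07 (adjusted p = 0.357).

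Of 31 genes of iron-sulphur cluster assembly, 4 were called higher and 1 lower, beside 6.65% and 6.18% of all genes. Their median log2 fold change was 0.07. *Hspa9*, the mitochondrial chaperone that passes clusters on, was higher at 0.26 (adjusted p = 0.00186) under all 14 settings. *Nubp2* and *Fam96b* were higher at 0.32 and 0.26 (adjusted p = 0.0132 and 0.0357 in the edgeR test), and these calls were lost under 3 and 6 of the 14 settings.

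**Figure D5:**
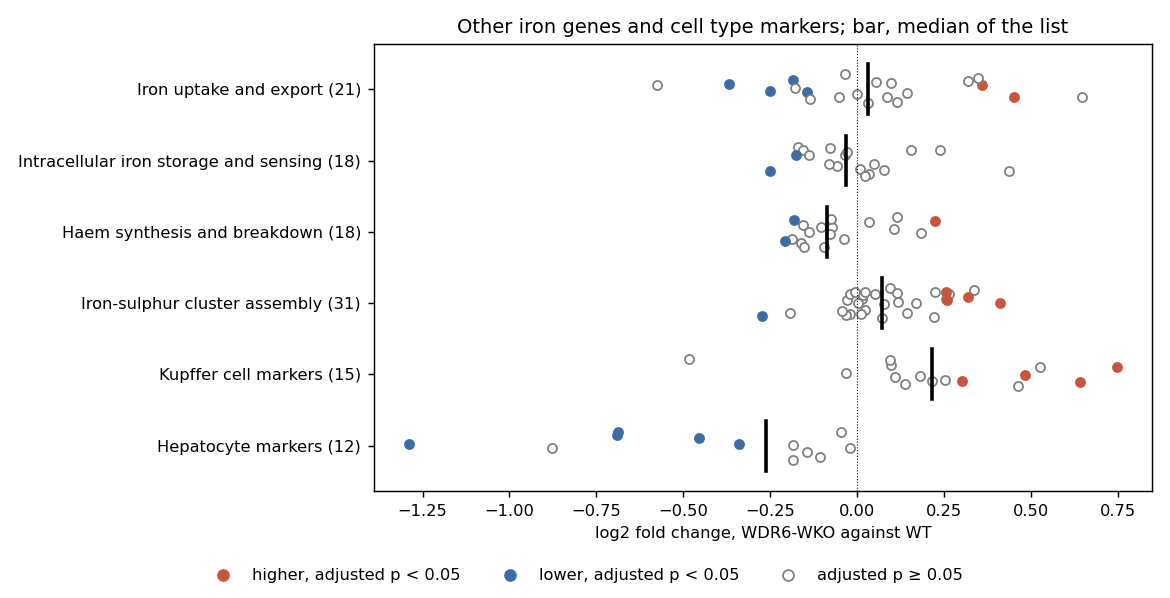
Log2 fold change of WDR6-WKO against WT (x axis) for each tested gene (points) of 4 lists of iron genes and 2 lists of cell type markers (y axis, with the number tested), where black bars mark the median of the list and filled points an adjusted p under 0.05. The medians of the iron lists lie between -0.09 and 0.07, that of the Kupffer cell markers at 0.22 and that of the hepatocyte markers at -0.26.

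Genes whose levels differed least from those of *Hamp* were sought among all genes of at least 1 CPM on average. The measure was the root mean square difference, over the 7 libraries, of log2 levels relative to the WT mean. A change of similar size between genotypes is enough to make this difference small, so a small value does not show joint variation within a genotype. The nearest were *Slfn5* (0.143), *Oas3* (0.179), *Oasl1* (0.187), *Xaf1* (0.202) and *Usp18* (0.204). *Slfn5* was measured at 7.36, 9.27, 10.7 and 10.3 CPM in WT and 20.7, 20.3 and 20.1 CPM in WDR6-WKO libraries. In WT both *Slfn5* and *Hamp* were lowest in replicate 1. Over the WDR6-WKO libraries *Slfn5* changed little, while *Hamp* went from 49.7 to 41.8 and 34.1 CPM. Shared regulation of these genes with *Hamp* was not tested.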

How the data were processed

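RNA of primary hepatocytes in 4 WT and 3 WDR6-WKO samples was sequenced on an Illumina HiSeq platform with an NEBNext Ultra RNA kit. According to the submitters' processing notes, reads were aligned with Bowtie2 2.2.3 to mm10. The authors deposited raw counts per gene symbol. The counting tool, annotation and use of strand are not given in the sources used here. The smallest row total was 50. At the depths given, the biological coefficient of variation was 7.40%.

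Counts were scaled (TMM), filtered (filterByExpr) and tested across all 14779 genes with the robust quasi-likelihood test of edgeR 4.0.16 in R 4.3.3, without a block, with Benjamini-Hochberg adjustment at 0.05. The script was tested on simulated data. Exact permutation tests enumerated all 35 assignments of the 7 libraries. Alternatives were DESeq2 1.42.0, limma-voom (limma 3.58.1), median-of-ratios factors, unscaled library sizes, no count filter, a stricter filter (10 reads or more in each library), a replicate block and each library left out. Positions, lengths and shared 50-base sequences came from GENCODE on GRCm38, and promoters from RefSeq.

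The members and lists were chosen with earlier results of these data known. Genes named are the members, *Wdr6*, every gene called in a list (at most 6 a list, by smallest p), genes with a stated role around *Hamp*, and the 5 genes nearest to *Hamp*. *Alb*, *Usf1*, *Usf2*, *Aco1*, *Ireb2*, *Ncoa4*, *Hmox1* and the Kupffer cell markers *Timd4*, *Cd5l*, *Marco*, *Csf1r* and *C1qa* were added after their values were seen. The erythroid list was not analysed here. Some genes that this rule names are not reported here.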

Additional observations from a re-analysis of the deposited data

Results flagged for a closer look

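Among 57 named genes, each checked in the 4 WT libraries with Dixon's test, 1 had a library far from the others. The Kupffer cell marker *Lyz2* was measured at 52.4 CPM in WT replicate 3, with the nearest library at 48.6 CPM and the lowest at 48.0 CPM, and the ratio of the gap to the range was 0.853, above the 95% critical value for 4 samples. *Lyz2* shares 15.4% of its 50-base sequences with *Lyz1*. Such a check marks about 1 in 20 groups by chance.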

How the results depend on the processing

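Of 140 values for the 10 iron genes under 14 settings, 135 kept their direction and their side of the adjusted p of 0.05. The 4 that passed only under an alternative were *Tfr2* without WDR6-WKO replicate 1 and *Trf*, *Ftl1* and *Id1* without WDR6-WKO replicate 3, and the 1 that turned was *Tfrc*, whose log2 fold change ranged from -0.030 without WDR6-WKO replicate 3 to 0.123 without WDR6-WKO replicate 2. The count of iron genes called lower by the study's call rule went from 2 to 0 with library sizes alone, where *Slc40a1* was at -0.33. Under that scaling, which moved the median of all genes to 0.03, the list medians were 0.13 for BMP-SMAD targets, -0.0044 for storage and sensing and -0.059 for haem genes.

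With each library left out in turn, 570 to 2150 genes were called higher and 462 to 2083 lower, the highest counts both without WDR6-WKO replicate 3. Iron genes called higher ranged from 1 to 3, called lower from 1 to 2, and lower by the study's call rule from 0 to 2. List medians ranged from 0.026 to 0.114 for BMP-SMAD targets, -0.187 to -0.109 for the IL-6-STAT3 branch, -0.067 to 0.063 for other transcription factors, 0.013 to 0.076 for uptake and export, -0.074 to -0.022 for storage and sensing, -0.115 to -0.075 for haem genes and 0.028 to 0.092 for iron-sulphur genes. Those of the Kupffer cell markers ranged from 0.170 to 0.275 and those of the hepatocyte markers from -0.312 to -0.240. The cause of these shifts was not tested.

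Samples with the same replicate number come from different genotypes, and their deviations correlated by 0.07, 0.03 and 0.06. Among WT replicates 1 to 3, the highest correlation was with replicate 1 for WDR6-WKO replicates 1 and 2, and with replicate 3 for WDR6-WKO replicate 3. These few correlations, with no reference to compare them to, cannot decide whether the numbers mark pairs or shared batches. The main fit used no pairing. With the replicate block, *Hamp* had a log2 fold change of 1.26 (edgeR adjusted p = 0.0375) and *Slc40a1* -0.34 (0.00047), 1 iron gene was called higher and 1 lower, beside 945 and 817 of all genes, and by the study's call rule 1 was higher and 0 lower, beside 923 and 549 of all genes. Among the 10 iron genes and the BMP-SMAD genes called, *Hfe2*, *Bmp4* and *Bmp6* had the fewest reads and so the largest counting error.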
